A study of Homo sapiens with 28 samples.

Results

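Mitochondria make the core proteins of the respiratory chain on ribosomes of their own. The RNA of these ribosomes comes from mitochondrial DNA, but every one of their proteins is encoded in the nucleus, translated in the cytosol and imported. The genes carry the names MRPL, for the large subunit, and MRPS, for the small one. Many of the proteins descend from those of bacterial ribosomes and others exist only in mitochondria. Breast cancer cells, like other growing cells, transcribe these genes continuously from promoters that often hold sites for the factors GABP (an ETS protein), NRF1 and YY1.

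The 74 genes described here are those whose symbol is MRPL or MRPS followed by a number and at most 1 letter, without pseudogenes or antisense genes. They comprise 47 MRPL and 27 MRPS genes, and all 74 are in both deposited tables, which list 16482 genes for all reads and 13029 genes for reads carrying T-to-C conversions. 4 other names that match, MRPL45, MRPL47, MRPS18A and MRPS21, were not analysed here. Names do not always follow the structure: MRPS30 was later placed in the large subunit. The values of 83 genes of the cytosolic ribosome (81 in the T>C table) are given beside those of the 74 as a second set of ribosomal protein genes.

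The cells were MDA-MB-453, a human breast cancer line, all grown with 0.1 mM 4-thiouridine during the last 60 min. Treatment lasted 3 h with JQ1-VHL, IBET151-VHL, JQ1, IBET151 or the solvent DMSO. JQ1 and IBET151 block the bromodomains of BET proteins, which help RNA polymerase II to transcribe, and the VHL compounds link the inhibitor to a binder of VHL, part of a ubiquitin ligase. Digitonin parted each culture into a nuclear and a cytoplasmic fraction, with 10% Drosophila S2 cells added. Polyadenylated RNA gave 3′ end libraries of 100 bp reads, 28 in 10 groups: 3 per compound and fraction, but 2 per fraction for IBET151. Doses are not in the labels, so no comparison between compounds is known to be at matched doses. Neither do the labels say that replicates were separate cultures, so p-values measure the spread between these libraries. In such bulk RNA, fewer cells and less RNA per cell cannot be told apart.

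T>C reads, those with a T-to-C conversion, mark RNA made while 4-thiouridine was present. Every library carried it, so the share of conversions arising without it is unknown. Nuclear libraries held 17851589 to 38658448 reads and cytoplasmic ones 30647584 to 68475299. The 74 genes took 0.411% to 0.670% of the nuclear reads and 1.02% to 1.21% of the cytoplasmic ones. The luminal genes KRT8 and GATA3 were high in every library, and the basal and other-lineage genes KRT5, KRT14, VIM and PTPRC stayed at or under 11.1. Other genes of the same list were not at 0. The collagen gene COL1A1 lay between 1170 and 6655, TP63 at 45.8 to 195 in nuclear and 7.85 to 28.2 in cytoplasmic libraries, and ESR1 at 45.0 to 173 in nuclear and 4.49 to 20.3 in cytoplasmic ones. CD14 reached 38.1 in nuclear libraries, and COL3A1 at most 3.46. The nuclear RNA MALAT1 had 15747 to 65876 in nuclear libraries and 1181 to 4769 in cytoplasmic ones. Nuclear libraries numbered 1, other than that of IBET151, stand apart with low deposited values, for the 74 genes as for others, and the nuclear libraries of DMSO replicate 3 and JQ1 replicate 3 had a low share of T>C reads. Results that rest on them are given with and without the replicate number, or without the libraries, where this changes a call.

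Promoters are shown for 5 genes whose total cytoplasmic RNA fell (below), MRPL46, MRPS10, MRPS30, MRPS26 and MRPS2. That of MRPL15, which also fell, is not shown, so the 5 are not the full set. RefSeq promoter entries (GRCh38.p14, 250 bases before to 50 after the start) matched 65 of the 74 genes. The ETS core CCGGAAG, searched on both strands, was in 26 of the 65, or 40%, against 16.4% of 12564 genes of the table of all reads. The YY1 core AAGATGGCG was in 12, or 18.5%, against 3.3%, and the NRF1 core TGCGCATGC in 5, or 7.69%, against 2.39%. The E-box CACGTG, the site of MYC, was in 7.69% against 9.27% of all genes, and the TATA box TATAAA in 3.08% against 7.16%. 3 promoters held both the ETS and the YY1 core, whose letters do not overlap there. In 8 of the 12 with the YY1 core it lay on the gene's strand within 30 bases after the start. Another gene started head to head within 1000 bases in 21 of the 65, or 32.3%, against 20.8% of all genes. One such pair is MRPL46 and MRPS11, whose starts are 320 bases apart. Below, 70 bases before the start and 30 from it are given 5′ to 3′ on the gene's strand, with the YY1 or ETS core in capitals (in MRPS26 the ETS core is on the other strand).
MRPL46, chr15:88467359-88467458, minus strand: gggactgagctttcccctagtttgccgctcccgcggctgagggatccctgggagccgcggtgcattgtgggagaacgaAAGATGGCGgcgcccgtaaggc
MRPS10, chr6:42217832-42217931, minus strand: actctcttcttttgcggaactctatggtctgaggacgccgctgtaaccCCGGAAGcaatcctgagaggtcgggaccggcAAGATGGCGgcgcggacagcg
MRPS30, chr5:44808877-44808976, plus strand: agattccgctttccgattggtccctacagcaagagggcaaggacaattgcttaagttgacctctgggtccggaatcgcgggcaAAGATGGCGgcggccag
MRPS26, chr20:3045982-3046081, plus strand: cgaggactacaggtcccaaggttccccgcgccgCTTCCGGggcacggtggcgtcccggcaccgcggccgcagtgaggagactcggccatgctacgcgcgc
MRPS2, chr9:135500612-135500711, plus strand: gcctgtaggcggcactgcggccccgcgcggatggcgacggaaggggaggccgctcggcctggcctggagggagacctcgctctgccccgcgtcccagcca
The YY1 core begins 8, 9 and 13 bases after the start in MRPL46, MRPS10 and MRPS30. In MRPS10 the ETS core precedes the start at position -22, and in MRPS26 it lies at -37. The printed stretch of MRPS2 holds none of the 5 motifs, which says only that these letters are not in this window.

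In DMSO cells the 74 genes had a lower nuclear over cytoplasmic ratio, by their median, than all genes. The deposited values are reads scaled by the authors to ERCC spike-in RNA. The libraries read transcript ends, so values were not divided by length. MRPL41, a mitochondria-specific protein of the large subunit, averaged 14990 ± 11020 in the nucleus and 23880 ± 1035 in the cytoplasm of DMSO cells (SD, n = 3 each). MRPS7, which binds the small-subunit RNA, averaged 17800 ± 10750 in the nucleus and 20210 ± 2998 in the cytoplasm. Lowest were MRPL50, with 190 ± 119 in nuclei and 222 ± 125 in cytoplasm, and MRPS22, a mitochondria-specific small-subunit protein, with 453 ± 293 in nuclei and 153 ± 120 in cytoplasm. The nuclear SDs are wide because the DMSO libraries lie far apart. MRPS7 was at 6412 in replicate 1, against 19189 and 27784 in the other nuclear DMSO libraries. Measured from the DMSO mean, the members' median log2 value was -1.28, 0.30 and 0.99 in nuclear replicates 1, 2 and 3.

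In the limma fit of all 28 libraries, 3 of the 74 members were higher in the nucleus than in the cytoplasm of DMSO cells at an adjusted p under 0.05, and 0 were lower. Of all genes, 47.9% were higher and 0.539% lower. MRPS28 had 1269, 3211 and 4684 in DMSO nuclei, against 746, 1009 and 854 in DMSO cytoplasm (log2 difference 1.63, SE 0.55, adjusted p = 0.0127). MRPL32 had 662, 2406 and 4169 in nuclei, against 152, 797 and 1084 in cytoplasm (1.88, adjusted p = 0.0279), and overlaps exons of PSMA2 on the opposite strand. MRPS22 had 157, 458 and 743 in nuclei, against 19.3, 252 and 188 in cytoplasm (1.93, adjusted p = 0.0344). MRPS28 was higher in every nuclear library, while the ranges of MRPL32 and MRPS22 overlapped. The median log2 difference was -0.42 over the members, -1.09 over cytosolic ribosomal protein genes and 1.26 over all genes. The members' median was thus at -1.68 relative to that of all genes. With median-ratio scaling over human genes, which moved the median of all genes by -1.09, 1 member was higher and 69 lower. The members' median was then -1.56 and that of all genes 0.17. With the replicate number as a block, which the data pair here, 4 were higher and 8 lower, where 55.3% of all genes were higher and 1.74% lower. Without nuclear replicate 2 the count was 0, without cytoplasmic replicate 1 it was 1, and without nuclear replicate 3 it was 6, all of them lower.

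**Figure D1:**
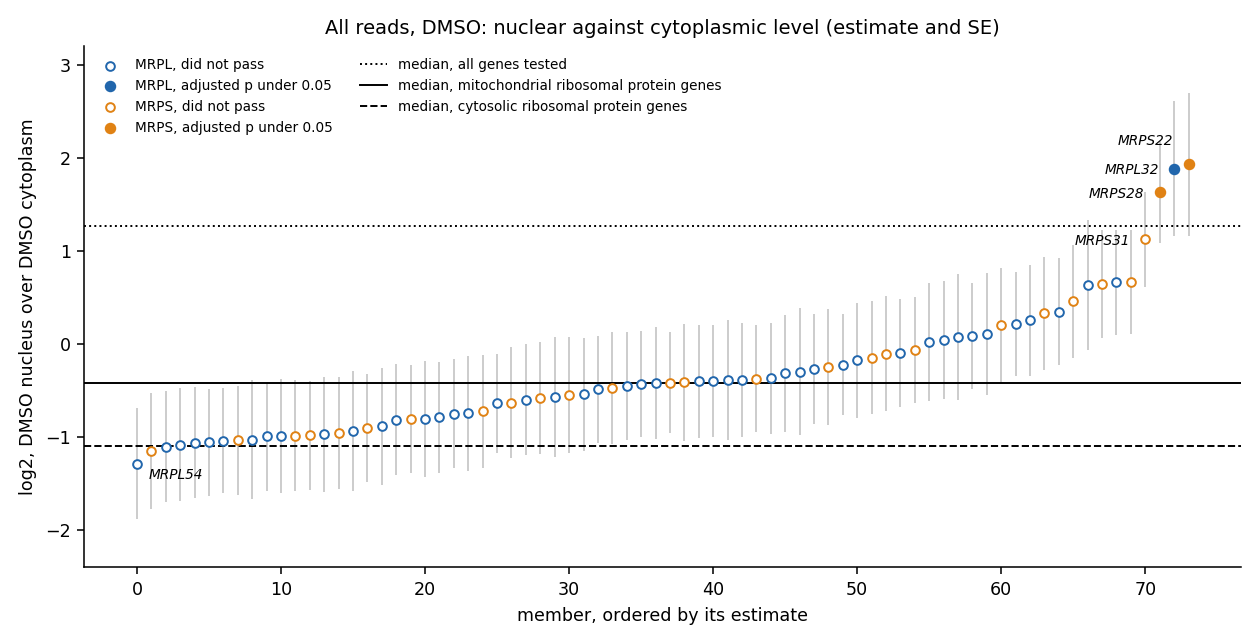
Log2 difference between DMSO nuclei and DMSO cytoplasm in all reads, 1 point per member with its SE, ordered by the estimate; blue is MRPL, orange MRPS, filled where the adjusted p is under 0.05. The members' median of -0.42 (solid line) lies between that of cytosolic ribosomal protein genes (-1.09, dashed) and that of all genes (1.26, dotted), and MRPS28, MRPL32 and MRPS22 are the 3 filled points.

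T>C reads were a small part of the reads of these genes, more so in the cytoplasm. The part of the RNA that was new was not estimated from them. In DMSO cells the median member had 4.95% T>C reads in the nucleus and 0.497% in the cytoplasm. The same medians were 7.18% and 0.687% over all genes with a mean of at least 20, and 2.51% and 0.169% over cytosolic ribosomal protein genes. 19 of the 74 members lay above the all-gene median in the nucleus and 26 in the cytoplasm. The share also depends on how many T the read end holds, so differences between genes are not only differences in age of the RNA.

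Single members spread widely around those medians. MRPL50, MRPL44 and MRPL13 had the highest cytoplasmic shares in DMSO, and MRPL23, MRPL38 and MRPL12 the lowest. MRPL44, a large-subunit protein with an RNase III fold, had a share of 13.9% ± 6.1 in the nucleus and 3.19% ± 0.89 in the cytoplasm (SD, n = 3 each). MRPL13 had 6.67% ± 2.93 in the nucleus and 4.37% ± 3.50 in the cytoplasm, where its libraries gave 8.36%, 2.88% and 1.87%. MRPL12, the stalk protein of the large subunit, had 0.638% ± 0.112 in the nucleus (17 T>C reads of 2603) and 1 T>C read of 9920 in the cytoplasm. MRPL23 had 0 T>C reads of 3716 in the cytoplasm, which allows a share of up to 0.0807% by counting error alone (3 reads). Across the 74 members the nuclear and cytoplasmic shares in DMSO went together (Pearson r = 0.66, Spearman rho = 0.76, a description over members read in the same libraries).

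**Figure D2:**
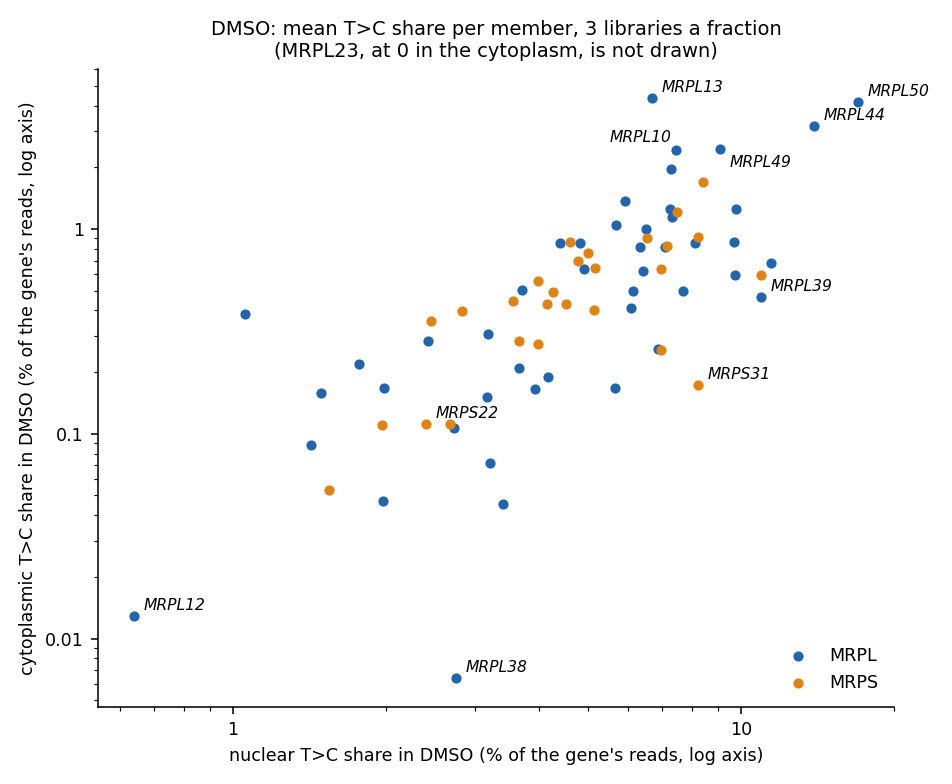
Mean T>C share of each member in DMSO nuclei (x, log axis) and DMSO cytoplasm (y, log axis), in percent of the gene's reads over 3 libraries, MRPL and MRPS in different colours. Members with a high nuclear share, such as MRPL50 and MRPL44, also have a high cytoplasmic share, and the spread covers more than a factor of 10 on the y axis.

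In T>C reads, 71 of 74 members were higher in the nucleus than in the cytoplasm of DMSO cells (limma, adjusted p under 0.05), where 93.6% of all genes were. The members' median difference was 2.77 on the log2 scale, against 3.62 over all genes. MRPL38, a mitochondria-specific large-subunit protein, had 76.98, 191.0 and 32.56 in nuclei, against 0, 0 and 0.517 in cytoplasm (log2 difference 6.11, SE 0.73, adjusted p = 1.04e-11). MRPS31, of which near-identical pseudogenes exist, followed at 5.79, and MRPL54 had the least difference (-0.07, SE 0.74, adjusted p = 0.925). With median-ratio scaling the members' median turned to -0.43, where that of all genes was 0.74. 2 members were then higher and 7 lower, and the estimates of MRPL18, MRPL58, MRPS12, MRPS18B and MRPS2 were below 0.

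Each compound was then set against DMSO. The 4 comparisons share the DMSO libraries of a fraction, so their values are given side by side and not as independent support for each other.

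Total cytoplasmic RNA of these genes changed little in 3 h, and the few members that passed the test fell. 6 of 74 members fell in JQ1-VHL cells, where 12.5% of all genes fell and 0.417% rose. 5 fell in IBET151-VHL cells (15.4% of all genes fell and 0.465% rose), and 3 fell in JQ1 cells (4% fell and 0.818% rose). By name these were 2 of 47 MRPL and 4 of 27 MRPS genes in JQ1-VHL cells, 2 MRPL and 3 MRPS genes in IBET151-VHL cells, and 1 MRPL and 2 MRPS genes in JQ1 cells. The MRPS genes of both VHL compounds include MRPS30, which is placed in the large subunit. 0 members rose in these 3 comparisons by limma, edgeR or DESeq2. In IBET151 cells, 0 members passed in limma (1.62% of all genes fell and 0.898% rose), with 5 at an unadjusted p under 0.05, 0 in edgeR and 1 in DESeq2. The members' median change was -0.11, -0.08, -0.14 and 0.04 on the log2 scale in JQ1-VHL, IBET151-VHL, JQ1 and IBET151 cells. All genes had -0.17, -0.15, -0.13 and 0.00, and cytosolic ribosomal protein genes 0.05, 0.10, 0.01 and 0.19, for the same compounds. Relative to all genes the members' medians were at 0.06, 0.08, -0.01 and 0.03. With median-ratio scaling, which raised the median of all genes by 0.22 in each VHL compound and by 0.15 in JQ1, the members' medians were above 0, at 0.11, 0.15 and 0.02.

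MRPS2, a small-subunit protein of bacterial descent whose exons overlap C9orf116 on the opposite strand, had 1644, 1861 and 1895 in JQ1-VHL cytoplasm and 1603, 1713 and 1582 in IBET151-VHL cytoplasm. JQ1 cytoplasm had 1853, 1911 and 1648, IBET151 cytoplasm 1820 and 2074, and DMSO cytoplasm 2860, 3024 and 2472. Every treated library lay below every DMSO library. The change was -0.63 in JQ1-VHL (SE 0.14, adjusted p = 0.0077, limma), -0.77 in IBET151-VHL (adjusted p = 0.00125), -0.62 in JQ1 (adjusted p = 0.0186) and -0.51 in IBET151 cells (adjusted p = 0.12).

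MRPL46, a mitochondria-specific large-subunit protein, had 915, 1112 and 1015 in JQ1-VHL cytoplasm and 823, 955 and 832 in IBET151-VHL cytoplasm. JQ1 cytoplasm had 995, 1135 and 888, IBET151 cytoplasm 1096 and 1122, and DMSO cytoplasm 1777, 1705 and 1326. Again no treated library reached the lowest DMSO library. In IBET151-VHL cells its change was the largest among members that passed in total cytoplasmic RNA, -0.87 (SE 0.16, adjusted p = 0.0015), or 54.6% of the DMSO level. The change was -0.65 in JQ1-VHL (adjusted p = 0.015), -0.67 in JQ1 (adjusted p = 0.0292) and -0.52 in IBET151 cells (adjusted p = 0.199).

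MRPS10, a small-subunit protein, averaged 2444 ± 298 in JQ1-VHL and 3476 ± 561 in DMSO cytoplasm (SD, n = 3 each). Its change was -0.50 in JQ1-VHL (adjusted p = 0.0424), -0.65 in IBET151-VHL (adjusted p = 0.00735), -0.57 in JQ1 (adjusted p = 0.0449) and -0.42 in IBET151 cells (adjusted p = 0.297). MRPL15, part of the large-subunit core, averaged 1754 ± 117 in JQ1-VHL and 2599 ± 288 in DMSO cytoplasm. It fell in both VHL compounds, by 0.56 in JQ1-VHL (adjusted p = 0.0132) and by 0.54 in IBET151-VHL (adjusted p = 0.0131), and was at -0.45 in JQ1 (adjusted p = 0.0792).

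MRPS30 averaged 1028 ± 59 in JQ1-VHL and 1497 ± 259 in DMSO cytoplasm, with a change of -0.53 in each VHL compound (adjusted p = 0.0401 in JQ1-VHL and 0.0333 in IBET151-VHL). MRPS26, a mitochondria-specific small-subunit protein, averaged 4706 ± 319 in JQ1-VHL and 6230 ± 438 in DMSO cytoplasm. It was named after its values were seen, to account for all 6, and fell by 0.40 in JQ1-VHL (adjusted p = 0.0447) and was at -0.36 in IBET151-VHL (adjusted p = 0.0685).

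The calls depended on the fit and on single libraries. With fits of only the 2 groups compared, 0 members passed in JQ1-VHL, 2 in IBET151-VHL and 0 in JQ1. Left out in turn, JQ1-VHL replicates 1, 2 and 3 left 1, 3 and 2 calls in JQ1-VHL. In IBET151-VHL the count was 8 without DMSO replicate 1 or 3 and 3 without IBET151-VHL replicate 3. In JQ1 it was 1 without DMSO replicate 1 or 2 or JQ1 replicate 1, 0 without JQ1 replicate 2 or 3, and 6 without DMSO replicate 3. With the replicate number as a block, which the data pair here, 8 members fell in JQ1-VHL (16.2% of all genes fell in the same fit), 8 in IBET151-VHL (18.5%) and 6 in JQ1 (6.38%).

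11, 13, 17 and 8 of the 74 had every JQ1-VHL, IBET151-VHL, JQ1 or IBET151 library below every DMSO library, where 22.2%, 22.2%, 12.6% and 12.2% of all genes did. The member with the highest estimate in JQ1-VHL was MRPS22 (1.21, SE 0.67, adjusted p = 0.332), which was at 19.3 in DMSO replicate 1. Across the 74 members the DMSO cytoplasmic T>C share and the change in total cytoplasmic RNA were nearly unrelated, with Pearson r between -0.17 and 0.03 over the 4 compounds.

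**Figure D3:**
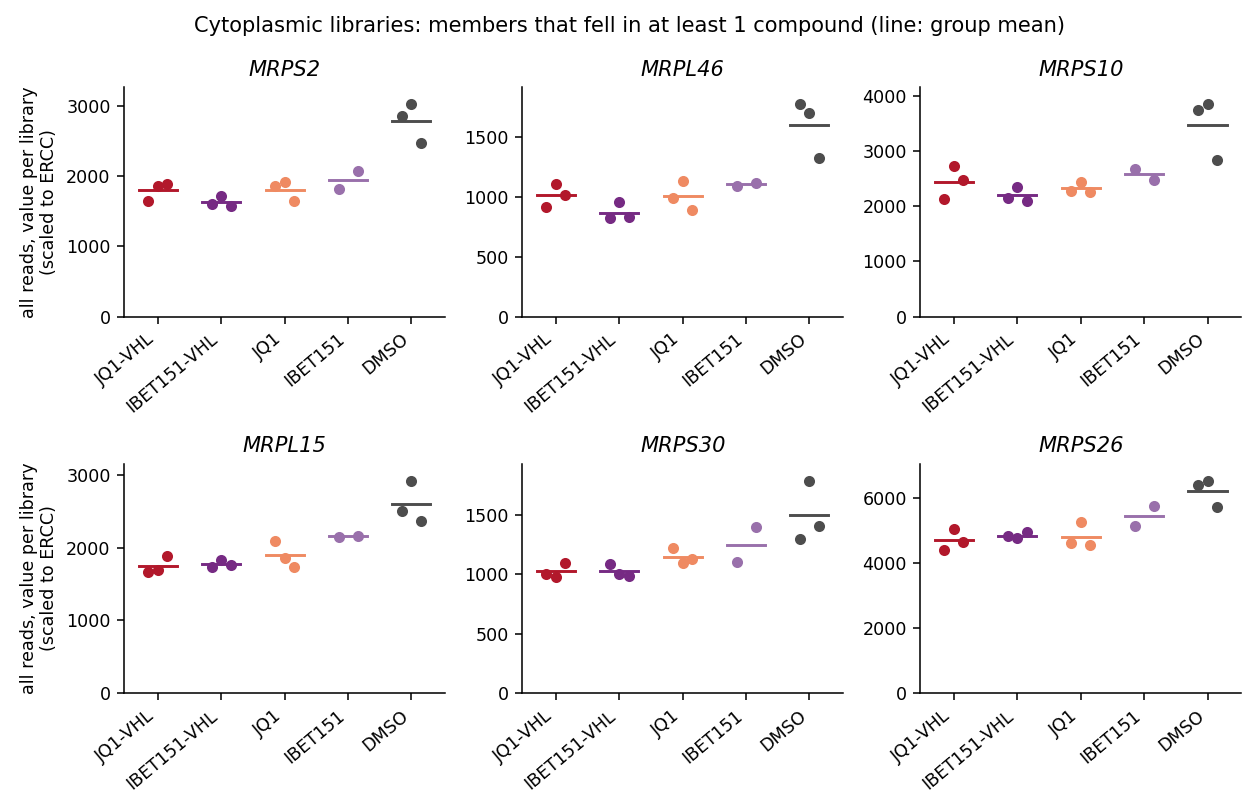
Value of all reads in every cytoplasmic library (points, scaled to ERCC RNA, y axes from 0) for the 6 members that fell in at least 1 compound; lines are group means. MRPS2, MRPL46 and MRPS10 show all treated libraries under all DMSO libraries, and MRPS30 shows the least separation, with 1296 in the lowest DMSO library and 1397 in the highest IBET151 library.

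In the nucleus, estimates for total RNA lay below 0 for nearly all members in JQ1-VHL, IBET151-VHL and JQ1 but not in IBET151, and none passed the test without pairing. In limma, 0 of 74 members passed in each of JQ1-VHL, IBET151-VHL, JQ1 and IBET151 nuclei, with 0, 4, 0 and 0 at an unadjusted p under 0.05, and edgeR and DESeq2 called 0. Of all genes, 1.07% fell and 0.902% rose in JQ1-VHL nuclei. In IBET151-VHL 3.66% fell and 0.888% rose, in JQ1 0.0486% fell and 0.0208% rose, and in IBET151 0.00694% fell and 0.0902% rose. The estimate was below 0 in 74, 74, 73 and 35 of the 74 members. The median change was -0.53, -0.80, -0.51 and 0.00 over members and -0.48, -0.71, -0.43 and 0.05 over all genes for the 4 compounds in that order. Relative to all genes the members' medians were thus at -0.05, -0.09, -0.08 and -0.05. The low nuclear libraries all belong to the first of 4 runs of consecutive library numbers, to which IBET151 contributed none. Against the DMSO mean, its 2 libraries had member medians of -0.29 and 0.34, where the DMSO libraries themselves lay at -1.28, 0.30 and 0.99. With the 4 runs as a block, 25 members fell in JQ1-VHL nuclei (38.6% of all genes fell), 58 in IBET151-VHL (57.3%), 40 in JQ1 (32.7%) and 22 in IBET151 (20.4%), so IBET151 is not shown to differ from the other compounds here.

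Nuclear values differed by replicate number within every group. MRPL46 had 220, 947 and 966 in JQ1-VHL nuclei and 151, 600 and 741 in IBET151-VHL nuclei, against 579, 1631 and 2442 in DMSO nuclei. In each group the library numbered 1 was the lowest, so the groups overlap while each numbered pair has DMSO on top. Between libraries of the same number the members' median difference was -0.48, -0.31 and -0.78 for JQ1-VHL, -0.77, -0.55 and -1.01 for IBET151-VHL and -0.60, -0.62 and -0.27 for JQ1. Over all genes it was -0.85, -0.25 and -0.44 for JQ1-VHL, -0.97, -0.52 and -0.70 for IBET151-VHL and -0.63, -0.41 and -0.22 for JQ1. In IBET151-VHL all 74 members were lower in each of the 3 pairs, as were 90.8%, 83.9% and 82.6% of all genes. For both VHL compounds the libraries numbered 3 belong to another run of library numbers than DMSO replicate 3. In that pair compound and run cannot be told apart. The 1 pair of an IBET151 and a DMSO library from the same run had a median difference of -0.61 over members and -0.31 over all genes.

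The effect of each VHL compound on total RNA was compared between nucleus and cytoplasm, and 0 of 74 members differed for either compound in limma, edgeR or DESeq2, with 0 at an unadjusted p under 0.05. Of all genes 0% differed for JQ1-VHL and 0.00692% for IBET151-VHL.

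With the replicate number as a block, 16 members fell in JQ1-VHL nuclei (23.4% of all genes fell in the same fit), 49 in IBET151-VHL nuclei (43.7%) and 3 in JQ1 nuclei (9.54%; limma, adjusted p under 0.05). Of those, MRPL50 had 5.43, 111 and 103 in IBET151-VHL nuclei, against 71.4, 191 and 308 in DMSO nuclei (blocked change -1.95, SE 0.43, adjusted p = 5.34e-05). MRPL44 changed by -1.82 in IBET151-VHL (adjusted p = 9.87e-07) and by -1.22 in JQ1 (adjusted p = 0.00655). MRPL46 changed by -1.17 in JQ1-VHL (adjusted p = 0.00282), -1.70 in IBET151-VHL (adjusted p = 2.42e-06) and -1.06 in JQ1 (adjusted p = 0.0162), and MRPS2 by -1.12 in JQ1-VHL (adjusted p = 0.00265). Without the block these 4 members had adjusted p of at least 0.121. The blocked fit also coded the IBET151 libraries by number and put libraries of different runs into the same block. With median-ratio scaling, which raised the median of all genes by 0.53 in JQ1-VHL, 0.77 in IBET151-VHL and 0.44 in JQ1 nuclei, the members' medians were 0.01, -0.02 and -0.06.

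**Figure D4:**
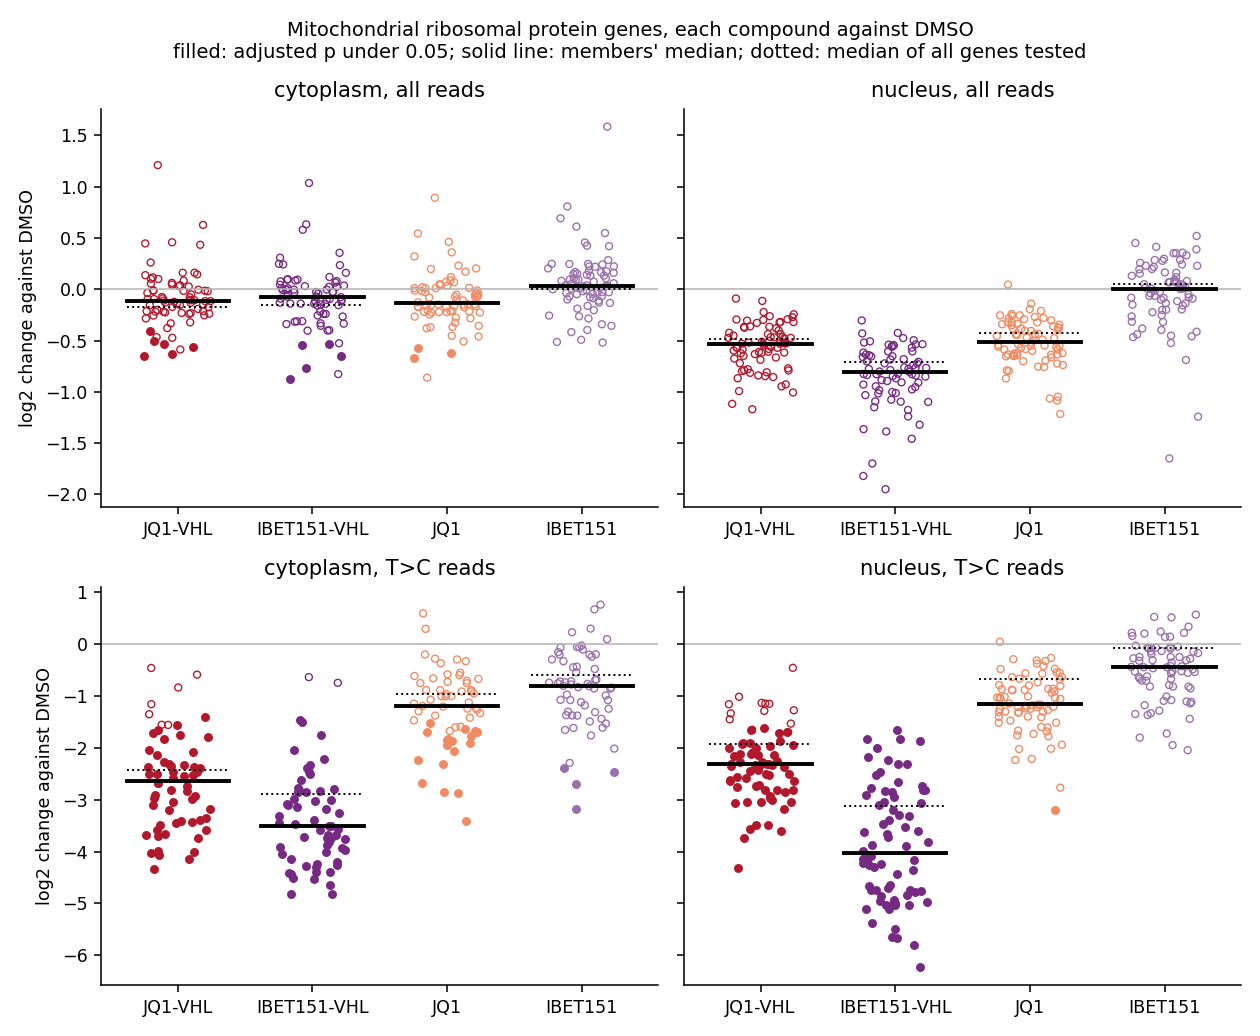
Log2 change of each member against DMSO, by compound, fraction and kind of read (points, filled where the adjusted p is under 0.05), with the members' median (solid line) and that of all genes tested (dotted). Filled points are few in the upper panels (all reads) and nearly complete for the VHL compounds in the lower panels (T>C reads), where the members' median lies below that of all genes.

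T>C reads of most tested members fell in the cytoplasm in both VHL compounds, as did those of most genes. Summed over the members, the T>C share of reads was 0.0849%, 0.116% and 0.0932% in JQ1-VHL cytoplasm and 0.0622%, 0.0562% and 0.0447% in IBET151-VHL cytoplasm. JQ1 cytoplasm had 0.262%, 0.301% and 0.245%, IBET151 cytoplasm 0.278% and 0.333%, and DMSO cytoplasm 0.547%, 0.499% and 0.463%. No treated library reached the lowest DMSO library, and the VHL libraries lay below those of both inhibitors.

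62 members had enough T>C reads in the cytoplasm to be tested, which favours those that are high in DMSO. 55 of them fell in JQ1-VHL (82.8% of all genes fell), 60 in IBET151-VHL (88.3%), 18 in JQ1 (20.1%) and 4 in IBET151 (6.76%), and 0 rose in these 4 comparisons by limma, edgeR or DESeq2. The counts in the 2 inhibitors depend on the tool and on single libraries. edgeR and DESeq2 each called 8 members in JQ1 and 0 in IBET151. In JQ1 the count was 5 without DMSO replicate 2 or JQ1 replicate 3, 7 without DMSO replicate 1, 10 without JQ1 replicate 1 and 11 without DMSO replicate 3 or JQ1 replicate 2. In IBET151 it was 2 without DMSO replicate 2. Of all genes 0.19%, 0.159%, 0.492% and 0.524% rose in these compounds. The median change was -2.63 in JQ1-VHL, -3.51 in IBET151-VHL, -1.20 in JQ1 and -0.81 in IBET151 cells on the log2(value + 1) scale. Relative to the median of all genes tested this was -0.21, -0.61, -0.23 and -0.21. That gap belongs to this scale, on which changes of low genes are understated. By T>C share the median member was at 0.497% in DMSO, 0.0637% in JQ1-VHL and 0.0199% in IBET151-VHL cytoplasm. Over all genes with a mean of at least 20 the medians were 0.687%, 0.0700% and 0.0230%, so by share the members did not fall further. Cytosolic ribosomal protein genes had medians of -1.90, -2.45, -0.62 and -0.21. With the members that were at 0 in a compound set to their bound, the members' medians were -2.68 in JQ1-VHL and -3.58 with IBET151-VHL. Median-ratio scaling raised the median of all genes by 1.56 in JQ1-VHL cells and by 1.67 in IBET151-VHL cells. It left 12 members lower and 2 higher in JQ1-VHL, and 32 lower and 3 higher in IBET151-VHL. Under it the members' medians were -1.12 and -1.64, and those of all genes -0.86 and -1.23.

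MRPS7, whose exons overlap GGA3 on the opposite strand, had 11.4, 6.34 and 8.17 T>C units in JQ1-VHL and 1.35, 4.32 and 6.56 in IBET151-VHL cytoplasm, against 74.9, 82.7 and 98.8 in DMSO cytoplasm. The change was -3.19 in JQ1-VHL (SE 0.48, adjusted p = 2.97e-06) and reached -4.24 in IBET151-VHL (adjusted p = 1.49e-08), and the groups were far apart. MRPL3, a large-subunit protein near the peptidyl transferase centre, had 3.35, 0.906 and 0.743 in JQ1-VHL, 0 in all 3 IBET151-VHL libraries, 2.56, 1.59 and 3.36 in JQ1, and 6.66 and 0.911 in IBET151 cytoplasm, against 19.3, 29.6 and 23.8 in DMSO. It passed in all 4 compounds (adjusted p = 3.58e-05, 2.22e-07, 0.0029 and 0.0161) and was at least 34.1-fold lower in IBET151-VHL, taking 3 reads over the group as the floor.

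Among the largest falls in JQ1-VHL were MRPL19 (opposite GCFC2, -4.33, adjusted p = 2.66e-06), MRPL22 (-4.14), MRPL15 (-4.06), MRPL36 (-4.02) and MRPL57 (-4.01). IBET151-VHL had MRPL34 (opposite ABHD8, -4.82, adjusted p = 3.8e-08), MRPS10 (-4.82), MRPL44 (-4.53) and MRPL15 (-4.50). MRPS10, one of the members whose total RNA also fell, had 0.673, 0.864 and 0 in IBET151-VHL cytoplasm, against 60.4, 31.2 and 34.7 in DMSO cytoplasm. MRPL58, which frees stalled mitochondrial ribosomes, fell by 2.09 in JQ1-VHL (SE 0.47, adjusted p = 0.000306) and by 4.43 in IBET151-VHL cytoplasm (adjusted p = 5.62e-09), though with median-ratio scaling its JQ1-VHL estimate was 0.06.

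A few members kept a large part of their cytoplasmic T>C reads. Whether these reads mark new RNA or conversions that arise without 4-thiouridine was not tested. In IBET151-VHL cells the T>C share of MRPL13 was 1.88% in cytoplasm and 1.99% in nuclei, and that of MRPL43 was 0.520% and 0.847%. MRPL13 had 52.3, 68.9 and 79.5 in JQ1-VHL and 95.5, 52.7 and 51.3 in IBET151-VHL cytoplasm, against 132.8, 128.3 and 58.0 in DMSO (changes -0.59 and -0.64, SE 0.37 each, adjusted p = 0.138 and 0.105). The groups overlapped through DMSO replicate 3. MRPL43, whose exons overlap TWNK and SEMA4G on the opposite strand, had a T>C share of 0.497% ± 0.129 in JQ1-VHL, 0.520% ± 0.059 in IBET151-VHL and 0.850% ± 0.150 in DMSO cytoplasm (SD, n = 3 each), with changes in T>C reads of -0.84 and -0.75 (adjusted p = 0.0609 and 0.0883). MRPL41 fell, by 1.41 in JQ1-VHL (adjusted p = 0.00622) and by 1.51 in IBET151-VHL (adjusted p = 0.00319). Over the 61 members with at least 20 T>C reads in DMSO cytoplasm, the median member kept 9.93% of its DMSO share in JQ1-VHL, 3.51% in IBET151-VHL, 48.7% in JQ1 and 51.8% in IBET151. In JQ1-VHL 2 of the 61 kept over 50%, MRPL37 (74.1%) and MRPL43 (58.5%), while MRPL41 kept 42.5% and MRPL13 39.4%. The value of MRPL37 rests on 25 T>C reads in JQ1-VHL and 37 in DMSO, and in IBET151-VHL it kept 30.9%.

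**Figure D5:**
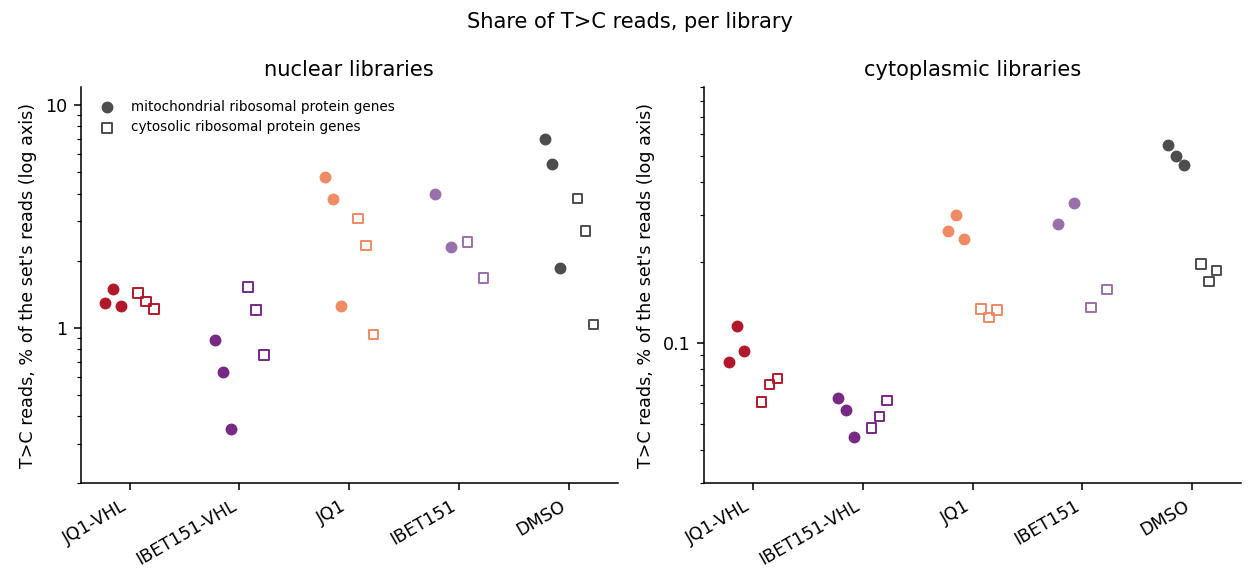
T>C share per library, in percent of reads, summed over the 74 members (filled circles) and over cytosolic ribosomal protein genes (open squares), by compound, in nuclear and cytoplasmic libraries (log axes). In DMSO cytoplasm the members lie at 0.463% to 0.547% and in IBET151-VHL cytoplasm at 0.0447% to 0.0622%; in nuclei 1 DMSO library (1.86%) and 1 JQ1 library (1.25%) lie far below the others of their group.

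In the nucleus, T>C reads of all 74 members fell in IBET151-VHL and of most members in JQ1-VHL, as did those of most genes. 61 of 74 fell in JQ1-VHL (60.5% of all genes fell), 74 in IBET151-VHL (83.9%), 1 in JQ1 (2.29%) and 0 in IBET151 (0.987%). 0 rose in these comparisons, where 1.28%, 1.09%, 0.124% and 0.315% of all genes rose. In IBET151, 2 members had an unadjusted p under 0.05, and edgeR and DESeq2 called 0. The median change was -2.31 in JQ1-VHL, -4.04 in IBET151-VHL, -1.16 in JQ1 and -0.45 in IBET151. Relative to all genes that was -0.39, -0.92, -0.48 and -0.38, and cytosolic ribosomal protein genes had -1.03, -1.47, -0.48 and 0.21. Of the cytosolic ribosomal protein genes, 9 of 80 fell in JQ1-VHL and 41 of 80 in IBET151-VHL. The limma fit gave all genes 1 common spread here.

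The count in JQ1-VHL rests on single libraries: it was 31 without JQ1-VHL replicate 1 and 27 without DMSO replicate 2. When T>C values were divided by all-read values it was 4, and 64 in IBET151-VHL. Median-ratio scaling raised the median of all genes by 1.63 in JQ1-VHL nuclei and by 2.58 in IBET151-VHL nuclei. It left 3 members lower and 1 higher in JQ1-VHL, and 35 lower and 3 higher in IBET151-VHL. Under it the members' medians were -0.63 and -1.52, and those of all genes -0.29 and -0.54.

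In IBET151-VHL nuclei MRPL3 fell furthest, to 9.32, 0 and 4.48, against 326.5, 298.9 and 241.3 in DMSO nuclei (-6.23, SE 0.76, adjusted p = 5.16e-14). JQ1-VHL nuclei had 14.7, 41.7 and 62.2 (-3.04, adjusted p = 0.000576), JQ1 nuclei 74.0, 63.0 and 73.8 (-2.02, adjusted p = 0.152) and IBET151 nuclei 100.7 and 65.7 (-1.80, adjusted p = 0.501). Every treated library was below every DMSO library for this gene.

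MRPS2 had 10.1, 17.1 and 22.2 in JQ1-VHL and 2.33, 1.73 and 0 in IBET151-VHL nuclei, against 64.9, 192.8 and 122.6 in DMSO nuclei (-2.80, adjusted p = 0.00312, and -5.80, adjusted p = 7.93e-11). MRPS15, which binds the small-subunit RNA, had 0 T>C reads in IBET151-VHL nuclei and averaged 62.5 in DMSO nuclei, so it was at least 39.5-fold lower (floor of 3 reads over the group). The other large falls in IBET151-VHL were MRPL15 (-5.67, adjusted p = 3.95e-10) and MRPS10 (-5.49, adjusted p = 2.4e-10). In JQ1-VHL they were MRPL14 (-4.31, adjusted p = 4.85e-05), MRPL52 (-3.73), MRPL24 (-3.60), MRPL15 (-3.57) and MRPS33 (-3.48).

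MRPL24 was the 1 member that passed in JQ1 nuclei, at 15.3, 24.5 and 1.61, against 69.6, 161.0 and 70.9 in DMSO nuclei (-3.19, adjusted p = 0.0198), and it did not pass without the libraries of the last run of library numbers. Among members named in every comparison, MRPL18 changed by -1.93 in JQ1-VHL (adjusted p = 0.0235) and by -2.74 in IBET151-VHL nuclei (adjusted p = 0.000554), where median-ratio scaling gave 0.16. MRPS12, which forms the decoding site, fell in JQ1-VHL (adjusted p = 0.00163) and by 4.85 in IBET151-VHL nuclei (adjusted p = 3.57e-08). MRPS18B and MRPS18C were at -2.57 (adjusted p = 0.00261) and -1.34 (adjusted p = 0.105) in JQ1-VHL nuclei and at -4.73 and -3.53 in IBET151-VHL nuclei, where both passed. MRPL12 had 0 T>C reads in both VHL compounds and 17 in DMSO nuclei.

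The smallest nuclear fall in IBET151-VHL was that of MRPL10, a stalk-base protein (-1.66, adjusted p = 0.0297), with 21.0, 31.1 and 29.1, against 48.2, 104.4 and 128.3 in DMSO nuclei. In JQ1-VHL nuclei its T>C share was 7.69% ± 1.38, against 7.44% ± 2.06 in DMSO nuclei (SD, n = 3 each). MRPL49 kept 55.7% of its DMSO share in JQ1-VHL nuclei and 40.4% in IBET151-VHL nuclei. The median over the 71 members with at least 20 T>C reads in DMSO nuclei was 26.6% in JQ1-VHL, 9.64% in IBET151-VHL, 67.5% in JQ1 and 71.3% in IBET151.

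Each VHL compound was also set against the inhibitor it contains. In total RNA, 0 of 74 members differed in either fraction for JQ1-VHL against JQ1 or IBET151-VHL against IBET151, in limma, edgeR or DESeq2, and 0 had an unadjusted p under 0.05. In the cytoplasm 4.18% of all genes were lower in JQ1-VHL and 0.0481% higher, and 7.87% lower and 0.0321% higher in IBET151-VHL. In the nucleus 0.166% were lower and 0.132% higher in JQ1-VHL, and 0.506% lower and 0.0347% higher in IBET151-VHL. The 95% interval of the cytoplasmic difference for MRPS2 ran from -0.30 to 0.30 in JQ1-VHL against JQ1 and from -0.59 to 0.08 in IBET151-VHL against IBET151. For MRPL46 it ran from -0.33 to 0.36 and from -0.74 to 0.04. The median member's interval was -0.32 to 0.39 for JQ1-VHL and -0.54 to 0.27 for IBET151-VHL in the cytoplasm, and -1.59 to 1.49 and -2.58 to 0.88 in the nucleus. The wide nuclear intervals leave room for differences of that size. For IBET151-VHL 72 of the 74 nuclear estimates were below 0, with a median of -0.85 (-0.78 over all genes). For JQ1-VHL 45 were, with a median of -0.05 (-0.04 over all genes). Fits with a block did call members in nuclei for IBET151-VHL against IBET151 (closing section).

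In T>C reads most tested members passed as lower in the VHL compound than in its inhibitor, except in nuclei for JQ1-VHL against JQ1. In the cytoplasm 35 of 62 members were lower in JQ1-VHL than in JQ1 (46.5% of all genes were) and 48 of 62 in IBET151-VHL than in IBET151 (69.1%), with 0 higher by limma, edgeR or DESeq2 (0.127% and 0.0476% of all genes were higher). Without JQ1 replicate 1 the first count was 21. MRPL49, whose exons overlap FAU on the opposite strand, had 13.4, 39.0 and 23.8 in JQ1-VHL and 81.8, 133.3 and 67.7 in JQ1 cytoplasm (difference -1.91, interval -2.74 to -1.08, adjusted p = 0.000596). It had 8.74, 6.92 and 7.76 in IBET151-VHL and 113.2 and 126.6 in IBET151 cytoplasm (-3.78, interval -4.71 to -2.85, adjusted p = 1.54e-07). MRPL10 (-3.83) and MRPL58 (-3.66) differed about as much in the second pair, while for MRPL13 and MRPL43 the intervals held 0 in both pairs.

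In the nucleus 68 of 74 members were lower in IBET151-VHL than in IBET151 (81.4% of all genes were, with 0.299% higher), with a median difference of -3.51. In JQ1-VHL against JQ1 3 were lower (13% of all genes, with 0.332% higher), MRPL14, MRPS33 and MRPS6, with a median of -1.11 and the interval of the median member from -2.76 to 0.37. That count ran from 0 to 6 when single libraries were left out, and was 11 with the replicate number as a block (25.7% of all genes), although the T>C reads of these groups do not pair by number. With the runs of library numbers as a block it was 43 (61.3% of all genes). MRPL58 was at 3.11, 34.6 and 8.96 in IBET151-VHL nuclei, against 275.9 and 346.4 in IBET151 nuclei (-4.77, interval -6.32 to -3.23, adjusted p = 1.14e-07).

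Genes that serve the same ribosome were followed through lists of its other components. In total cytoplasmic RNA, 7 of 24 mitoribosome assembly factors fell in JQ1-VHL, 9 in IBET151-VHL, 2 in JQ1 and 1 in IBET151. Of 20 mitochondrial aminoacyl-tRNA synthetases 4, 4, 2 and 0 fell, of 17 translation factors 1, 2, 1 and 0, and of 16 genes of mitochondrial DNA transcription and rRNA supply 2, 3, 1 and 0. Of 14 transcription factors of mitochondrial protein genes 4, 4, 2 and 1 fell, and of 5 mitoribosome proteins without an MRP name 0 fell in any compound (limma; 0 rose in any list). The shares of all genes that fell are those given for the cytoplasm above.

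Of these lists, DDX28, a helicase of large-subunit assembly, averaged 216 in JQ1-VHL, 98.7 in IBET151-VHL, 374 in JQ1 and 410 in IBET151 cytoplasm, against 751 in DMSO (changes -1.80, -2.92, -1.02 and -0.86, adjusted p = 5.87e-05, 4.85e-07, 0.0107 and 0.0678). FASTKD2, an RNA-binding assembly factor, passed in all 4 compounds (-0.74, -0.66, -0.85 and -0.88). PPRC1, a coactivator of the PGC-1 family, changed by -1.29 in JQ1-VHL (adjusted p = 0.000353), -1.80 in IBET151-VHL (adjusted p = 9.85e-06), -0.91 in JQ1 (adjusted p = 0.0112) and -0.70 in IBET151 cytoplasm (adjusted p = 0.108). MYC, an activator of ribosome genes, averaged 7.18 in JQ1-VHL, 10.0 in IBET151-VHL, 71.6 in JQ1 and 78.8 in IBET151 cytoplasm, against 171 in DMSO. QRSL1, which helps to charge mitochondrial glutamine tRNA, changed by -0.79 in JQ1-VHL (adjusted p = 0.0131), -0.82 in IBET151-VHL and -0.86 in JQ1. DDX28 was named after its values were seen.

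In nuclear T>C reads of IBET151-VHL cells, 23 of 24 assembly factors, 20 of 20 synthetases, 15 of 17 translation factors, 15 of 16 genes of mitochondrial transcription, 5 of 5 proteins without an MRP name and 12 of 14 transcription factors fell, where 83.9% of all genes did. In DMSO cells these lists had higher medians than the members. The median nuclear over cytoplasmic difference in total RNA was 0.95 for assembly factors, 1.14 for synthetases, 0.76 for translation factors and 1.01 for mitochondrial transcription, against -0.42 for the 74 members and 1.26 for all genes.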

How the data were processed

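Nuclear and cytoplasmic RNA of MDA-MB-453 cells was read in 28 libraries. The deposited values (a signal per gene, for all reads and for T>C reads) were scaled to ERCC RNA by the authors. Tools named in the submitters' processing notes are bcl2fastq, Trimmomatic 0.39, HISAT2, HTSeq and DESeq2, with dm3, hg19 and GRCh37 as builds. The way T>C reads were called and whether counting used strand are not given in the sources used here. Of the 74 genes, 17 overlap exons of another gene of the table, 14 of them on the opposite strand (GENCODE v29, by name), and reads of such pairs cannot be told apart. The values came back as whole reads for 100% of entries (tolerance 0.001), which gave the depths and the edgeR and DESeq2 counts. Since the values are not raw counts, limma with a trend on log2(value + 1) was the test, so changes of low genes are understated.

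A gene was tested where 2 or more libraries reached 10 in all reads or 5 in T>C reads, which left 12470 and 6300 genes in the cytoplasm and 14417 and 12059 in the nucleus. All 14 libraries of a fraction shared one fit, and DMSO nuclei and cytoplasm one of 28. P-values were Benjamini-Hochberg adjusted over all genes of a comparison, with 0.05 as threshold. Scripts were tested on simulated data. Tools were R 4.3.3, limma 3.58.1, edgeR 4.0.16, DESeq2 1.42.0, Python 3.11.15 and pandas 2.3.3.

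The members and lists were chosen with earlier results of these data known. The genes named are up to 5 members with the largest change in each direction among those that passed (the 3 with the smallest p where fewer than 3 passed), the 3 highest and lowest in DMSO, 10 fixed names, and for each other list the 4 with the smallest p. Other names are said to be chosen after their values were seen or illustrate shares. Replicate numbers come from the labels. In all reads, same-numbered libraries of DMSO, JQ1, JQ1-VHL and IBET151-VHL deviated together (lowest correlation 0.203 in the cytoplasm and 0.159 in the nucleus, 0.105 between DMSO fractions, above the set 0.1), so the numbers pair them. In T>C reads this held only for JQ1 and DMSO nuclei. IBET151 shares 2 numbers and was not counted as paired. Fits with the replicate block still coded its libraries by number, and every count with that block comes from such a fit. Floors (3 reads) cover counting error only, and intervals of differences come from limma's spread between libraries. Alternatives tried are named with their effect in the closing section.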

Additional observations from a re-analysis of the deposited data

Results flagged for a closer look

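The effect of a VHL compound on T>C reads (log2 change against DMSO) was compared between nucleus and cytoplasm in one fit of all 28 libraries, and 10 differences, each nuclear minus cytoplasmic, passed an adjusted p of 0.05 (limma). Of all genes, 0.729% had a higher and 4.96% a lower nuclear effect in JQ1-VHL, and 1.57% and 23.7% in IBET151-VHL. Most of the members concerned had few T>C reads in one fraction.

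For JQ1-VHL, MRPL57 differed by 2.73 (SE 0.87, adjusted p = 0.0434), with 148 T>C reads in nuclei and 6 in cytoplasm of JQ1-VHL cells, against 347 and 172 in DMSO. MRPL12 differed by -2.76 (SE 0.89, adjusted p = 0.0475), with 0 reads in both fractions of JQ1-VHL cells, against 17 in nuclei and 1 in cytoplasm of DMSO cells.

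For IBET151-VHL, MRPL52 differed by -3.96 (adjusted p = 0.0038), MRPL38 by -3.58 (0.00752), MRPL23 by -2.77 (0.0155), MRPL12 by -2.76 (0.017), MRPL28 by -3.28 (0.0176), MRPS15 by -3.02 (0.0203) and MRPL39 by -3.06 (0.0277), the values in brackets being adjusted p from limma. In DMSO cytoplasm these 7 members had 9, 1, 0, 1, 4, 24 and 9 T>C reads. With 0 or 1 read there, no cytoplasmic fall of MRPL38, MRPL23 or MRPL12 could be measured in either compound, so their values restate the nuclear change and show no difference between the fractions. For MRPL52, MRPL28 and MRPL39 the few reads leave little room for a fall. MRPS15 had 0 T>C reads in both fractions of IBET151-VHL cells. Its falls are therefore lower bounds only, at least 39.5-fold in nuclei and 7.4-fold in cytoplasm (floor of 3 reads over the group). No difference between the fractions can be read from them. MRPL10 differed the other way, by 2.38 (SE 0.88, adjusted p = 0.0372), with 58 reads in nuclei and 6 in cytoplasm of IBET151-VHL cells, against 178 and 165 in DMSO. edgeR called 0 of these members for either compound, and DESeq2 called 1 for JQ1-VHL and 0 for IBET151-VHL.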

How the results depend on the processing

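Counts below are members past an adjusted p of 0.05, the first number being that of the text; T>C pairs are given for JQ1-VHL, IBET151-VHL, JQ1 and IBET151 against DMSO in that order unless named. The cause of each change was not tested. For most of these counts the share of all genes called in the same fit is not given. They describe the dependence on processing and do not set the members against other genes. Median-ratio scaling moved most: cytoplasmic all reads 6 to 2 in JQ1-VHL and 0 to 1 in IBET151, nuclear all reads 0 to 1 in IBET151-VHL, DMSO nucleus against cytoplasm 3 to 70 (all reads) and 71 to 9 (T>C), cytoplasmic T>C 55 to 14, 60 to 35, 18 to 2 and 4 to 0, nuclear T>C 61 to 4, 74 to 38 and 1 to 0 for the first 3, VHL compound against inhibitor 35 to 2 and 48 to 6 in cytoplasm and 3 to 0 and 68 to 11 in nuclei, and nuclear minus cytoplasmic effects 2 to 1 and 8 to 4. Under it the members' median in DMSO nucleus against cytoplasm (T>C) was -0.43, against 2.77 in the text, and 45 of 74 members changed sign there. Among the members named for a comparison, these estimates changed sign and passed the threshold under one scaling or both: MRPL3 in DMSO nucleus against cytoplasm (-1.10, all reads), MRPL58 in cytoplasmic T>C reads of JQ1-VHL against DMSO (0.0568) and against JQ1 (0.30), MRPL18 in nuclear T>C reads of IBET151-VHL against DMSO (0.16) and IBET151 (0.23), MRPL18 (-1.50), MRPL58 (-0.94), MRPS12 (-1.65), MRPS18B (-1.18) and MRPS2 (-0.59) in DMSO nucleus against cytoplasm (T>C), and the IBET151-VHL nuclear minus cytoplasmic effect of MRPS15 (0.0638).

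Fits of only the groups compared gave cytoplasmic all reads 6 to 0, 5 to 2 and 3 to 0, nuclear all reads 0 to 1 in IBET151-VHL, JQ1-VHL against JQ1 35 to 19 (cytoplasmic T>C) and 3 to 1 (nuclear T>C), nuclear T>C 1 to 3 in JQ1 and the JQ1-VHL nuclear minus cytoplasmic effect 2 to 0. With a block for runs of library numbers, cytoplasmic all reads gave 16, 19, 9 and 7, nuclear all reads 25, 58, 40 and 22, IBET151-VHL against IBET151 nuclear all reads 5, DMSO nucleus against cytoplasm 12 (all reads), nuclear T>C 10 in JQ1 and 2 in IBET151, JQ1-VHL against JQ1 nuclear T>C 43, and the IBET151-VHL nuclear minus cytoplasmic effect 17. With the replicate block, cytoplasmic all reads gave 8 in IBET151-VHL and 6 in JQ1, nuclear all reads 16, 49 and 3, IBET151-VHL against IBET151 nuclear all reads 69 (2 shared numbers, not paired), DMSO nucleus against cytoplasm 12, nuclear T>C 2 in JQ1 and JQ1-VHL against JQ1 nuclear T>C 11; other counts with the block stayed within 1.5 times.

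DESeq2 gave 9, 7 and 1 for IBET151-VHL, JQ1 and IBET151 in cytoplasmic all reads, 8 for JQ1 and 0 for IBET151 in cytoplasmic T>C, 2 for JQ1 in nuclear T>C, and 1 and 0 for the nuclear minus cytoplasmic effects. edgeR gave 8 for JQ1 and 0 for IBET151 in cytoplasmic T>C, 0 for JQ1 in nuclear T>C, 1 for JQ1-VHL against JQ1 in nuclear T>C, and 0 and 0 for the effects. Without the last run of library numbers (chosen after seeing the data) the counts were 9 for IBET151-VHL and 2 for IBET151 in cytoplasmic all reads, 5 for JQ1 in cytoplasmic T>C, 0 for JQ1 in nuclear T>C, 1 for JQ1-VHL against JQ1 in nuclear T>C and 0 for the JQ1-VHL effect. A pseudocount of 5 gave 33 and 14 for JQ1 and IBET151 in cytoplasmic T>C, 4 for JQ1 and 5 for JQ1-VHL against JQ1 in nuclear T>C, and 5 and 34 for the effects. No filter gave 10 for JQ1 in cytoplasmic and 2 in nuclear T>C. T>C over all-read values gave 6 for JQ1 in cytoplasmic T>C, 4 and 0 for JQ1-VHL and JQ1 and 0 for JQ1-VHL against JQ1 in nuclear T>C, and 0 and 2 for the effects.

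Leaving out single libraries, the counts ran in cytoplasmic all reads from 1 to 7, 3 to 8, 0 to 6 and 0 to 0, and from 0 to 0 for both VHL compounds against their inhibitors; in nuclear all reads from 0 to 2 in IBET151-VHL and 0 to 0 otherwise; and for DMSO nucleus against cytoplasm from 0 to 6 (all reads) and 56 to 72 (T>C). In cytoplasmic T>C they ran from 53 to 56, 58 to 60, 5 to 11 and 2 to 5, and against inhibitors from 21 to 33 and 39 to 48. In nuclear T>C they ran from 27 to 63, 69 to 73, 0 to 2 and 0 to 0, and against inhibitors from 0 to 6 and 55 to 67. The effects ran from 0 to 5 and 4 to 11 (T>C) and 0 to 0 (all reads). Low T>C reads limit the cytoplasm, where 12 members were not tested, and the spread by replicate number limits nuclear all reads.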
